A study of Rattus norvegicus with 45 samples.

Results

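The comparison described here set gastrocnemius muscle of exercised rats given cerivastatin at 0.5 mg/kg/day (3 arrays) against gastrocnemius of exercised rats given vehicle (4 arrays). These 7 arrays, out of 45 in the series, were identified by their labels, and the groups were chosen with earlier results of these data known. All animals were female SD rats dosed for 14 days, and both groups were exercised by treadmill running (5 days a week, 20 min a day, belt speed 20 m/min), so that exercise was common to them. The series also holds gastrocnemius at 0.1 and 1.0 mg/kg/day, unexercised animals at each dose, and soleus at 1.0 mg/kg/day and vehicle. Its stated aims were the effect of the drug, the effect of exercise added to it, and the basis of the different sensitivity of muscle fibre types. The question put to the 7 arrays was a narrower one, namely which changes at 0.5 mg/kg/day the spread between arrays could exclude and which it could not.

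Cerivastatin is a statin, a class of drugs that block the synthesis of mevalonate, from which cells make sterols and isoprenoids. When cell sterol falls, the transcription factor SREBP2 is released and raises transcription of the sterol synthesis genes and of regulators such as Insig1, while isoprenoids are the lipid anchors of small GTPases. Statins are known for injury to skeletal muscle, fast fibres above all in rats, and the rat gastrocnemius is a mixed muscle made mostly of fast fibres with a slow-fibre portion.

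The labelled muscle was checked by its fibre genes, of which the fast ones were bright on all 7 arrays and the slow ones varied widely. Myh4, the fast (type IIB) myosin heavy chain, had a signal of 57568.6, 65495.7 and 58590.2 in the 0.5 mg/kg arrays, against 71475, 61046.7, 74532.8 and 89696.5 in the vehicle arrays. Over the 30 gastrocnemius arrays of the series Myh4 lay between 6250 and 89700, and over the 15 soleus arrays between 62.2 and 40060, so that the ranges of the muscles overlapped. The mean log2 signal of 15 slow-fibre genes ran from 8.53 to 14.96 in gastrocnemius and from 14.72 to 15.69 in soleus. Correlations of log2 signal were 0.939 to 0.945 among the 0.5 mg/kg arrays (3 pairs), 0.915 to 0.941 among the vehicle arrays (6 pairs) and 0.925 to 0.94 between the groups (12 pairs). The 5' to 3' signal ratio, a measure of RNA integrity, was 0.397 to 0.445 for actin in 0.5 mg/kg arrays and 0.350 to 0.469 in vehicle arrays. For Gapdh it was 0.802 to 0.869 in 0.5 mg/kg arrays and 0.837 to 0.888 in vehicle arrays.

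No gene passed the test at 0.5 mg/kg/day. Of 21729 probe sets, 0 (0%) had a Benjamini-Hochberg (BH) adjusted p under 0.05 by limma, and the lowest adjusted p was 0.996. An unadjusted p under 0.05 was reached by 904 probe sets (4.16%), of which 383 (1.76%) were higher and 521 (2.4%) lower at 0.5 mg/kg. In 1081 probe sets (4.97%) the 3 arrays did not overlap the 4, with 478 (2.2%) higher and 603 (2.78%) lower. An unadjusted p under 0.01 was reached by 109 (0.502%). The median log2 fold change was -0.02 and the median of its absolute value 0.19.

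What a count of 0 leaves possible was read from the 95% interval of each log2 fold change. A change of 2-fold or more in either direction was taken as excluded where the whole interval lay between -1 and 1. This held for 13373 of 21729 probe sets (61.5%), and by gene for 8125 of 11684 (69.5%). By gene a rise of that size was excluded for 9605 (82.2%) and a fall for 9438 (80.8%). A rise of 2-fold or more was excluded for 16832 probe sets (77.5%), a fall of 2-fold or more for 16390 (75.4%), and neither for 1880 (8.65%). A change of 1.5-fold was excluded for 6524 (30%). A pair of one-sided tests against the same limits in the same limma fit, BH adjusted, placed 13954 probe sets (64.2%) inside 2-fold and 4331 (19.9%) inside 1.5-fold. These counts depend on which arrays set the spread. With the spread taken from all 30 gastrocnemius arrays, 11031 (50.8%) were inside 2-fold, and from the 23 arrays without the 1.0 mg/kg/day groups, 11367 (52.3%). Of the 13373, 10608 (79.3%) and 11025 (82.4%) stayed inside under these estimates.

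The reach of the interval followed signal. The interval extended 0.60 log2 units either side of the estimate at the median probe set (1.52-fold), 0.28 at the 5th percentile (1.21-fold) and 1.56 at the 95th (2.94-fold). Among 3681 probe sets with a mean signal under 100, the median reach was 1.33 and 2.47% excluded a 2-fold change. Among 9580 with a signal of 100 to 500 the share was 55.2%, among 5498 from 500 to 2000 it was 94%, and among 2970 at 2000 or above 95.3%, with 77.1% inside 1.5-fold.

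**Figure D1:**
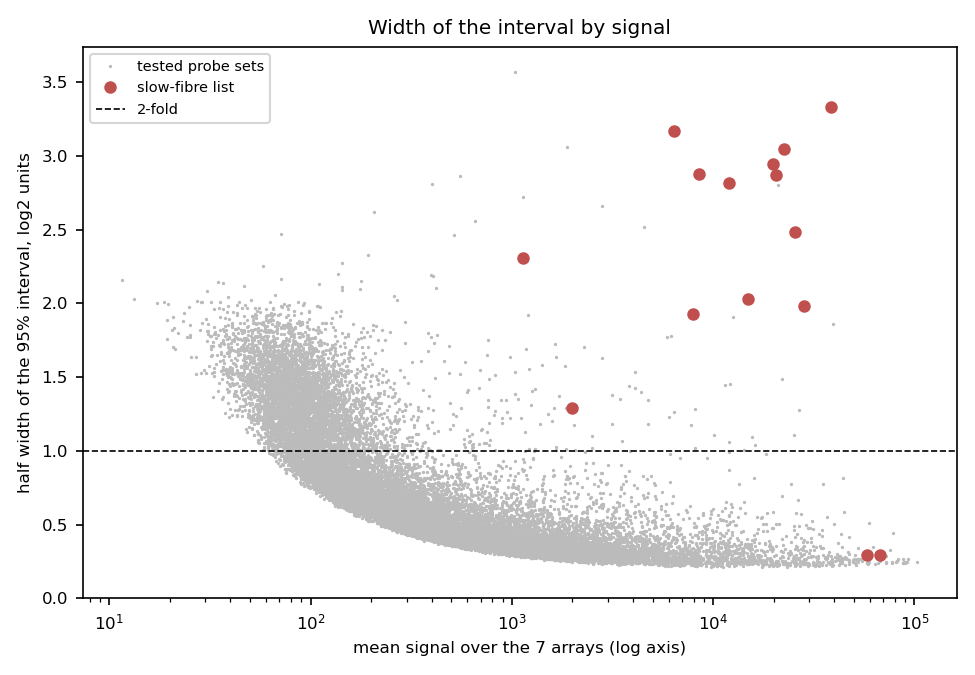
Reach of the 95% interval either side of the log2 fold change (vertical axis, log2 units) against mean signal over the 7 arrays (horizontal log axis), 1 point per tested probe set. The reach falls with signal, to a median of 0.31 at signals of 2000 and above, but most of the 15 slow-fibre genes lie far above it in spite of bright signals, with a median reach of 2.48.

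The drug's own pathway showed no difference in either direction beyond the spread. Of 17 measured sterol synthesis enzymes 0 were called, 7 were higher and 10 lower, and the median log2 fold change was -0.01, beside -0.02 over all probe sets. A 2-fold change was excluded for 12 of the 17, a rise of that size for 15 and a fall for 13, and the 12 was the same number with the spread of 30 or of 23 arrays.

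Insig1, which holds the SREBP complex in the endoplasmic reticulum and is itself an SREBP target, had a signal of 623.3, 804.8 and 609.5 at 0.5 mg/kg, against 823.2, 489.6, 850.6 and 509 in vehicle. The groups overlapped fully, and the log2 fold change of 0.06 had a 95% interval of -0.46 to 0.58, so that a rise beyond 1.49-fold lay outside it. Fdps, which makes farnesyl diphosphate at the branch to the isoprenoids, had a signal of 2131.2, 2372 and 2063.8 at 0.5 mg/kg, against 2392.4, 1848.8, 2361.1 and 2597.7 in vehicle. Its interval was -0.38 to 0.25. Idi1, the isomerase one step earlier, had an interval of -0.74 to 0.72. Squalene epoxidase, Sqle, could not be read in this way. Its signal of 54.5, 41.5 and 15.1 at 0.5 mg/kg and of 39.8, 7, 40.3 and 62.1 in vehicle was low, and the interval of -1.55 to 1.65 allowed a change past 2-fold in either direction.

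Dhcr7, the enzyme of the last step to cholesterol, was the member with the largest positive value. Its signal was 149, 151.9 and 158.2 at 0.5 mg/kg, against 67.9, 49.3, 90.5 and 124.8 in vehicle. The arrays did not overlap, and the log2 fold change was 0.85 ± 0.38 (SE), but it did not pass (limma, unadjusted p = 0.0444, BH adjusted p = 0.996). Its interval of 0.03 to 1.68 excluded a fall of 2-fold or more and left a rise of up to 3.21-fold possible. Without adjustment for the number of probe sets, it does not settle the direction. Acat2, which makes the acetoacetyl-CoA that feeds the pathway, was at the other end with -0.49 and arrays that did not overlap either (limma, BH adjusted p = 0.996).

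Sterol sensing and uptake genes were as close to vehicle. Of 14 measured members 0 were called, 10 excluded a 2-fold change (8 with the spread of 30 arrays), and the median was 0.02. Scap, which carries SREBP to the Golgi, had an interval of -0.42 to 0.31, Srebf2, the gene of SREBP2, one of -0.45 to 0.42, and Insig2 one of -0.34 to 0.32. The ends of the list were Scarb1, a lipoprotein receptor, at 0.44 (interval -0.57 to 1.46) and Stard4, a sterol carrier, at -0.38 (interval -1.37 to 0.61).

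Genes that act on the isoprenoids, and small GTPases that carry them, were tightly bounded. A 2-fold change was excluded for 20 of 21 (18 with the spread of 30 or of 23 arrays) and a 1.5-fold change for 12, with 0 called and a median of -0.003. Rhob, a small GTPase whose transcript statins raise in many cultured cells, had a signal of 2533, 3658.9 and 4303.9 at 0.5 mg/kg, against 2857.3, 4544.5, 3090.9 and 2516.6 in vehicle, and an interval of -0.38 to 0.60. Rac1 and Cdc42, which organise actin, had intervals of -0.40 to 0.14 and -0.30 to 0.21. Pdss2, which makes the side chain of coenzyme Q, and the GTPase Nras had non-overlapping arrays and log2 fold changes of 0.57 and 0.48, with upper limits of 1.00 and 0.88 (limma, BH adjusted p = 0.996 for each). Only Dhdds, which makes dolichol, exceeded the limit, at -0.54 to 1.69.

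**Figure D2:**
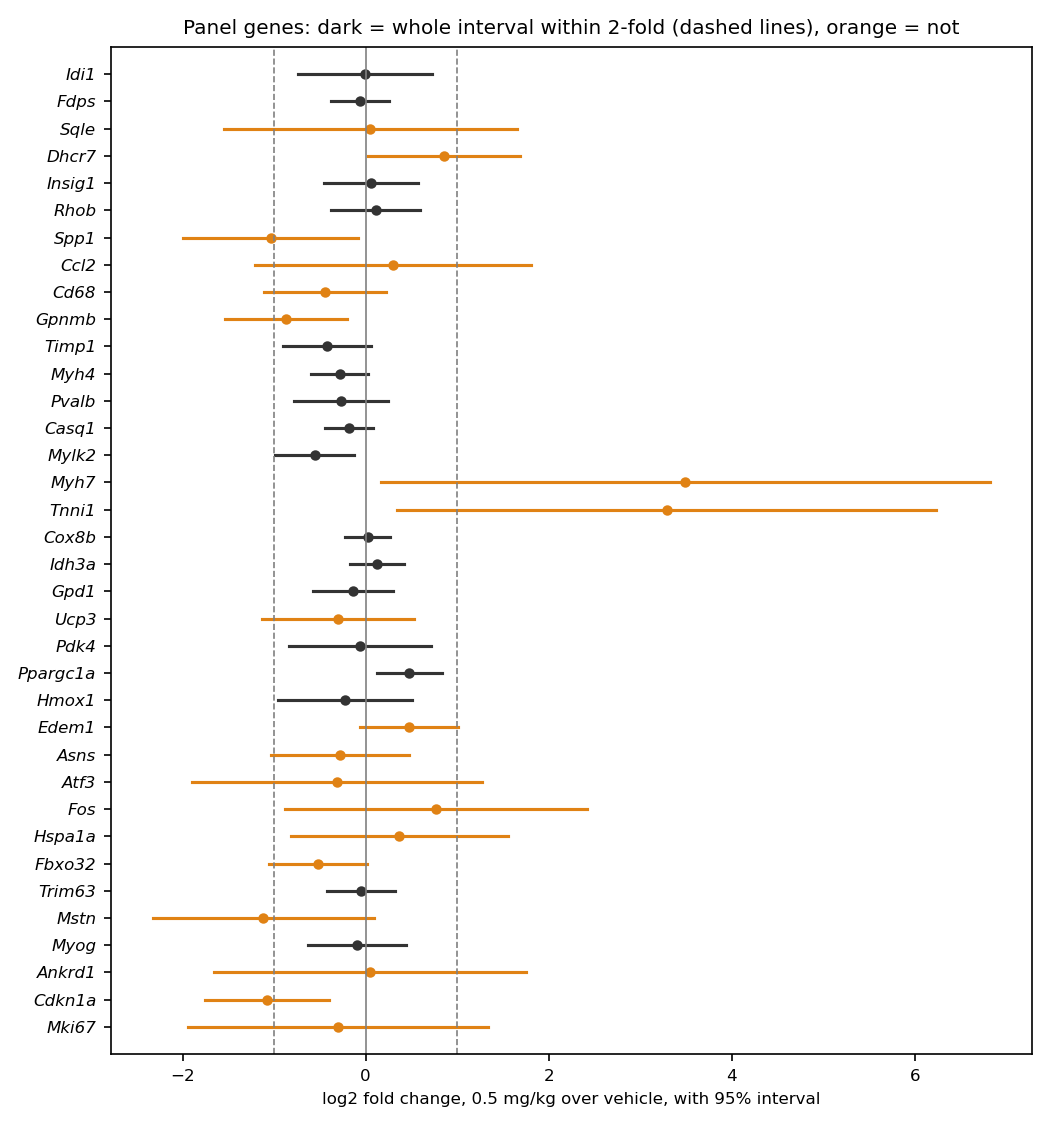
Log2 fold change at 0.5 mg/kg over vehicle (points) with its 95% interval (lines) for 36 genes of a panel grouped by role, horizontal axis in log2 units, dashed lines at 2-fold. For 17 genes (dark) the whole interval lies within 2-fold, while Myh7 and Tnni1 reach past 6 log2 units.

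Over this panel of 36 genes 0 were called, 17 excluded a 2-fold change, 25 a rise of that size and 23 a fall, and 5 neither. An unadjusted p under 0.05 was reached by 8 panel genes, beside 4.16% of all probe sets. The arrays of 3 did not overlap, namely those of Dhcr7, Spp1 and Ppargc1a. The panel was chosen with earlier results of these data known, so these counts describe the panel and nothing wider.

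Macrophage and myeloid genes were not higher at 0.5 mg/kg beyond the spread. Of 30 measured markers 0 were called, 22 were lower and 8 higher at 0.5 mg/kg, and the median log2 fold change was -0.28. The mean log2 signal of the list was 7.80, 8.09 and 7.82 at 0.5 mg/kg, against 8.30, 7.92, 8.24 and 8.15 in vehicle, so that the groups overlapped. In whole muscle, fewer cells of a type and less RNA per cell cannot be told apart. A rise of 2-fold or more was excluded for 25 of the 30, and for 24 with the spread of 23 arrays, but for 12 with that of 30. A 2-fold change either way was excluded for 17, for 6 with the spread of 23 arrays and for 0 with that of 30, so that most of these exclusions rest on the 7 arrays alone.

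Spp1 (osteopontin, a matrix protein secreted by macrophages in damaged muscle) had the lowest value of the list. Its signal was 89, 102.1 and 27.3 at 0.5 mg/kg, against 128.7, 187.4, 134.3 and 140.6 in vehicle. The arrays did not overlap, and the log2 fold change was -1.04 ± 0.43 (limma, unadjusted p = 0.0359, BH adjusted p = 0.996). The interval of -1.99 to -0.08 excluded a rise of 2-fold or more and left a fall of up to 3.98-fold possible. It is not adjusted for the number of probe sets, so that missing 0 does not settle the direction. Gpnmb, a glycoprotein of phagocytic macrophages, was at -0.87 with an interval of -1.53 to -0.21, and the complement gene C1qb at -0.59 with one of -1.11 to -0.08 (limma, BH adjusted p = 0.996 for each). Cd68, a lysosomal marker of macrophages, had a signal of 177.7, 132.9 and 142.1 at 0.5 mg/kg, against 308.7, 189.8, 216.8 and 148.2 in vehicle, with an interval of -1.11 to 0.22. Ccl2, the chemokine that draws monocytes, was dim and loosely bounded, at 0.30 with an interval of -1.21 to 1.81. The highest of the list was Laptm5 at 0.41, with its 2 probe sets at 0.41 and 0.61. Of the 30 markers, 8 were higher and 22 lower, so that the lower ones named here are not the whole list.

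Other cells of the tissue were compared through their markers. The 7 measured lymphocyte genes had list means of 7.026, 6.955 and 6.966 at 0.5 mg/kg, against 7.247, 7.096, 7.030 and 7.196 in vehicle, with 0 called. The groups met at 7.026 and 7.030, so that the lack of overlap rests on a difference in the third decimal. Within that list Cd4, a T-cell and monocyte receptor, was at -1.15 and Cd8a, of cytotoxic T cells, at 1.33, both without overlap of arrays and with opposite signs (limma, BH adjusted p = 0.996 for each). The 4 neutrophil genes were dim, and none excluded a 2-fold change. Of 14 endothelial genes 12 were higher, with a median of 0.19, and list means of 9.63, 9.73 and 9.74 at 0.5 mg/kg lay within the vehicle range of 9.15 to 9.96. Erythroid, mast cell, Schwann cell, smooth muscle, adipocyte and satellite cell lists had 0 members called, with medians from -0.01 in smooth muscle to 0.53 in the 5 erythroid genes. Cell-cycle genes, had 15 members higher and 14 lower of 29, a median of 0.02, and 13 with a 2-fold change excluded (4 with the spread of 30 arrays, 9 with 23). Mki67, a marker of proliferation, was dim on all arrays, and its interval ran from -1.94 to 1.34.

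Slow-fibre genes set the limit of what the comparison could show. All 15 measured members had a positive log2 fold change, with a median of 2.37, yet 0 were called and 9 had an unadjusted p under 0.05. A 2-fold change was excluded for 2 (0 with the spread of 30 arrays, 2 with 23). Myh7, the slow myosin heavy chain, had a signal of 40098.7, 54787.4 and 75459.2 at 0.5 mg/kg, against 9892, 84952.6, 3792.7 and 164.6 in vehicle. All 3 treated arrays lay inside the vehicle range. The log2 fold change was 3.49 ± 1.51, with an interval of 0.16 to 6.82 (limma, unadjusted p = 0.0413, BH adjusted p = 0.996), which as a ratio is 1.12-fold to 113-fold. The SD of its log2 signal was 3.70 in vehicle and 0.46 at 0.5 mg/kg. The limma fit takes 1 variance for both groups and draws it towards that of probe sets of like signal. For slow-fibre genes with such a spread, it is this draw that makes the interval and the unadjusted p too favourable. The lower limit is not secure.

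The same vehicle arrays were high and low throughout the list. Tnni1, slow troponin I, had a signal of 20524.2, 26397.9 and 37313.6 at 0.5 mg/kg, against 3957.7, 48650.6, 1488.5 and 195.9 in vehicle. Myl2, the slow regulatory myosin light chain, had 24159.1, 31698.7 and 44499.1 at 0.5 mg/kg, against 4476.3, 49988.8, 2104 and 156.5 in vehicle. Its 2 probe sets disagreed, at log2 fold changes of 0.49 and 3.44. The 11 probe sets of Tpm3, also in the list, ran from -0.06 to 3.25, and 5 of them excluded a 2-fold change. Those of Myh7 (3.22 and 3.49) and Tnni1 (3.23 and 3.29) were alike. As a list mean the slow-fibre genes stood at 13.65, 13.98 and 14.55 at 0.5 mg/kg, against 12.21, 14.85, 11.52 and 9.03 in vehicle, the second vehicle array highest of all 7 and the fourth lowest. The spread was therefore in vehicle, with an SD of 2.39 on the log2 scale, beside 0.46 at 0.5 mg/kg. Among 3706 genes with a mean log2 signal of at least 10, the interval reached 0.32 either side at the median and more than 2 in 10 genes. Of these 10, 9 were slow-fibre list genes and the other was Ankrd2, a stretch-responsive gene of slow muscle. Myoglobin (Mb) and Mybpc1, a slow myosin binding protein also found in fast fibres, were the 2 list members that did not share the spread, with intervals of -0.22 to 0.37 and -0.28 to 0.30.

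Unexercised vehicle animals, outside the comparison, had slow-fibre list means of 12.97 to 14.73 (n = 4), a range that holds all 3 of the exercised 0.5 mg/kg arrays. The second exercised vehicle array lay above it at 14.85, and the other exercised vehicle arrays below it at 9.03 to 12.21. Exercised arrays at 0.1 mg/kg/day ran from 10.35 to 14.87 and at 1.0 mg/kg/day from 8.97 to 14.11. A wide spread was also found without exercise, where arrays at 0.1 mg/kg/day ran from 8.53 to 14.96 with an SD of 2.66.

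**Figure D3:**
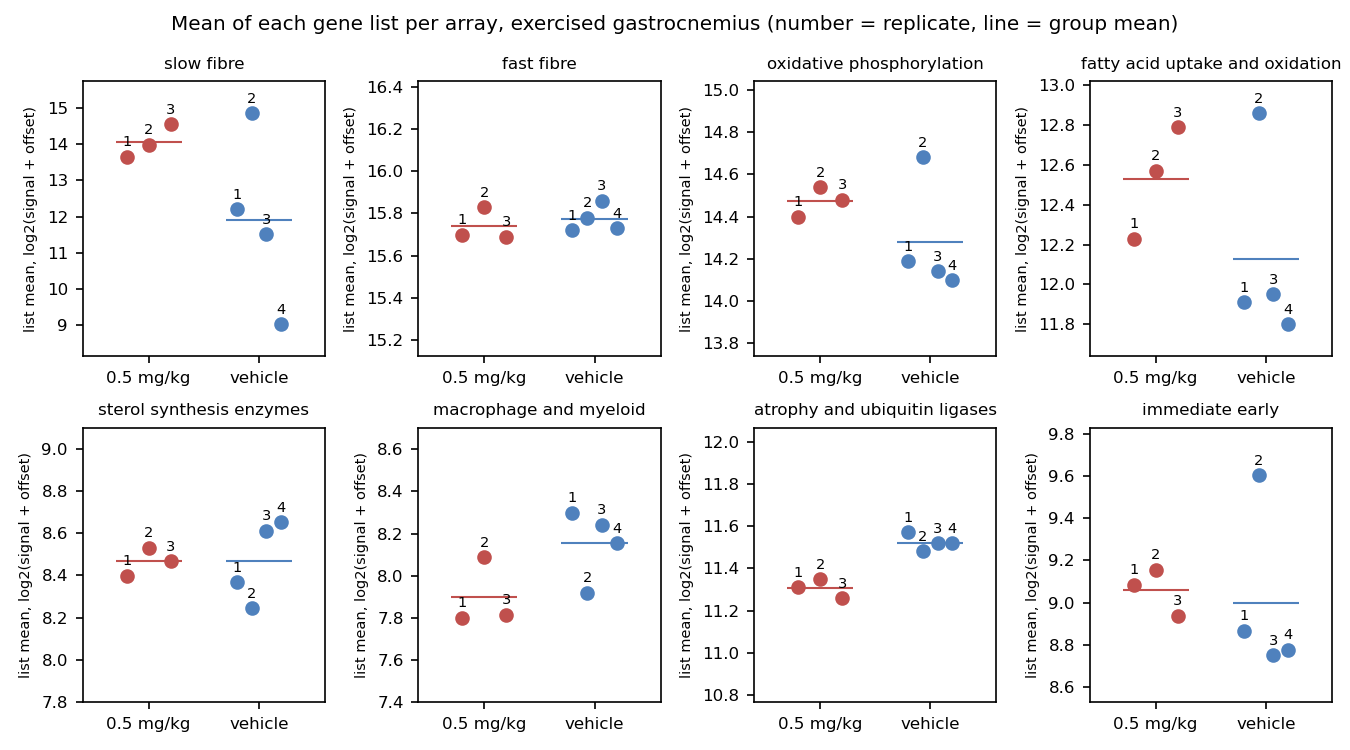
Mean log2 signal of 8 gene lists per array in exercised gastrocnemius (numbers are replicates, lines group means, 0.5 mg/kg left and vehicle right). Slow-fibre means span 9.03 to 14.85 among vehicle arrays and 13.65 to 14.55 at 0.5 mg/kg, whereas the atrophy list is the one shown whose groups do not overlap.

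Fast-fibre genes and the calcium machinery differed little. In the fast-fibre list 16 of 18 were lower at 0.5 mg/kg, with a median of -0.14 and 0 called, and 16 excluded a 2-fold change (8 with the spread of 30 arrays, 14 with 23). Myh4, with the signals given above, had a log2 fold change of -0.28 and an interval of -0.59 to 0.03. Pvalb (parvalbumin, a calcium buffer of fast fibres) had an interval of -0.78 to 0.24 and Casq1 (calsequestrin, the calcium store of fast fibres) one of -0.45 to 0.09. Mylk2, the muscle kinase of the myosin light chain, had a signal of 6756, 7370.1 and 7333.5 at 0.5 mg/kg, against 10722, 6959.4, 12852.5 and 12827.8 in vehicle. Only the second vehicle array lay among the treated ones, and the value of -0.56 ± 0.20 did not pass (limma, BH adjusted p = 0.996). The 2 higher members were Myh1 and Myh2. Myh1, the type IIX heavy chain, had a signal of 19625.8, 21832.2 and 22585.4 at 0.5 mg/kg, against 13426.9, 22545.8, 12569.8 and 11223.7 in vehicle. Only the second vehicle array lay among the treated ones, and the value of 0.57 ± 0.21 did not pass (limma, unadjusted p = 0.0196, BH adjusted p = 0.996), although it did without that array (0.78, limma, BH adjusted p = 0.0302). Probes of the myosin genes may share sequence, and the Myh1 probe set reported here is itself marked as cross-hybridising. Other Myh1 sets called without that array were at 0.81 and 0.70 there, and at 0.55 and 0.49 with all 7 arrays. Myh2, the type IIA heavy chain of oxidative fast fibres, was at 1.72 with an interval of -0.14 to 3.58. Its signal of 2217.2 in the fourth vehicle array was far below the 18588.4 to 63978.5 of the others and the 44853.6 to 61828.2 at 0.5 mg/kg. Of 21 genes for calcium handling and the triad, all excluded a 2-fold change and 19 a 1.5-fold change, but 6 did so at 2-fold with the spread of 30 arrays and 10 with that of 23. Ryr1, the calcium release channel, was lowest at -0.29 (interval -0.58 to 0.01) and Cacna1s, its voltage sensor, was at -0.01 (interval -0.25 to 0.23).

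Mitochondrial genes had positive list medians at 0.5 mg/kg that were not beyond the spread. Of 47 oxidative phosphorylation genes 45 were higher, with a median of 0.19 and 0 called, and 46 excluded a 2-fold change (21 with the spread of 30 arrays, 38 with 23). All 15 TCA cycle genes were higher, with a median of 0.27, and all excluded a 2-fold change (5 and 10 under the same estimates). Of 28 genes of fatty acid uptake and oxidation 26 were higher, with a median of 0.40, and 17 excluded a 2-fold change (3 and 6). The genes of a list vary together across arrays, so that such counts are not independent.

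The arrays did not separate by group. Oxidative phosphorylation list means were 14.40, 14.54 and 14.48 at 0.5 mg/kg, against 14.19, 14.68, 14.14 and 14.10 in vehicle. TCA cycle means were 14.07, 14.15 and 14.12 at 0.5 mg/kg, against 13.76, 14.14, 13.75 and 13.75 in vehicle. In both lists the treated arrays lay above 3 vehicle arrays, and the second vehicle array, also the highest in slow-fibre genes, lay among or above them. With the slow-fibre list mean of each array as a covariate, an alternative added after seeing these values, 20 oxidative phosphorylation genes were higher and 27 lower, with a median of -0.01. The TCA cycle median became 0.05 and that of the fatty acid list 0.03. The covariate came from the same 7 arrays and itself differed between the groups by 2.16 log2 units. Fitting it can take out part of the group difference, and why these medians fell was not tested. Without the second vehicle array the medians moved the other way, to 0.29 for oxidative phosphorylation, 0.37 for the TCA cycle and 0.61 for the fatty acid list.

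**Figure D4:**
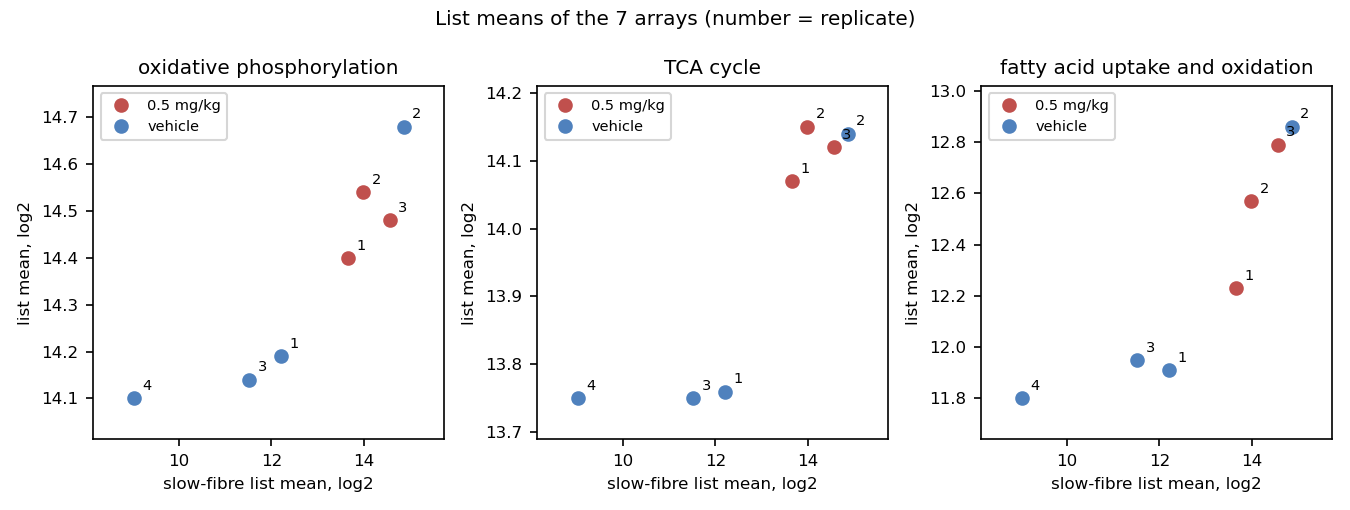
List means (log2 signal) of oxidative phosphorylation, TCA cycle and fatty acid genes (vertical axes) against the slow-fibre list mean (horizontal axes) for the 7 arrays, numbered by replicate within 0.5 mg/kg and vehicle. The second vehicle array is highest in the slow-fibre list (14.85) and in oxidative phosphorylation (14.68), and the other vehicle arrays lie lower in both.

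Cox8b, a muscle subunit of cytochrome oxidase, had a signal of 48778.7, 51449.3 and 48954.6 at 0.5 mg/kg, against 44360.4, 53774.8, 49054.6 and 49305.7 in vehicle. Its interval of -0.22 to 0.27 excluded a change beyond 1.2-fold in either direction. Idh3a, of the TCA cycle, had an interval of -0.18 to 0.42, and Gpd1, the cytosolic glycerol phosphate dehydrogenase, one of -0.57 to 0.30. Ppargc1a, the coactivator that drives mitochondrial biogenesis, had a signal of 1026.2, 1317.2 and 1153.2 at 0.5 mg/kg, against 936.8, 909.5, 706.1 and 788.5 in vehicle. The arrays did not overlap, and the log2 fold change of 0.48 ± 0.16 did not pass (limma, unadjusted p = 0.013, BH adjusted p = 0.996), with a rise beyond 1.78-fold outside its interval. Pdk4, which restrains glucose oxidation, had a signal of 11652.8, 36049.1 and 25952.4 at 0.5 mg/kg, against 17202.5, 37049.9, 23006.8 and 19680.2 in vehicle, and an interval of -0.84 to 0.71. In the glycolysis list 18 of 25 were lower, with a median of -0.14, and 21 excluded a 2-fold change (4 with the spread of 30 arrays, 11 with 23). Pfkfb3, a regulator of glycolytic flux, was lowest at -1.02 and the glucose transporter Slc2a1 highest at 1.37 (limma, BH adjusted p = 0.996 for each).

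No member of the stress lists was called. Hmox1, heme oxygenase, had a signal of 182.6, 129 and 143.7 at 0.5 mg/kg, against 171.9, 204.3, 107.2 and 259.2 in vehicle, and an interval of -0.96 to 0.51. Edem1, which disposes of misfolded proteins in the endoplasmic reticulum, was at 0.47 with an interval of -0.06 to 1.01, and its 3 probe sets disagreed, from -0.91 to 0.47. Asns, asparagine synthetase of the amino acid response, was at -0.28 with an interval of -1.03 to 0.48. Fos, an immediate early transcription factor, had a signal of 1199, 528.8 and 502 at 0.5 mg/kg, against 215.9, 2426.9, 203.2 and 219.7 in vehicle, and its interval of -0.88 to 2.42 left a rise of up to 5.36-fold possible. Atf3, a stress transcription factor, had 5099.6 in the same second vehicle array and 370.9 to 821.5 in the others, with an interval of -1.90 to 1.27. Hspa1a, the inducible heat shock protein 70, whose near-identical copy Hspa1b may share its probes, was likewise highest in that array, at 8027.1, against 1002.1 to 2021.2 in the others and 2280.5 to 3560.2 at 0.5 mg/kg.

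By list, 19 of 26 unfolded protein and integrated stress genes excluded a 2-fold change (15 with the spread of 30 arrays, 18 with 23). So did 16 of 18 heat shock genes (12 with either), 20 of 24 oxidative stress genes (17 and 18) and 15 of 21 p53 and apoptosis genes (10 and 11). Of 27 immediate early genes 10 did (5 with the spread of 30 or of 23 arrays). Their medians lay between -0.06 and 0.17, but that of the immediate early list was 0.06 with all 7 arrays and 0.30 without the second vehicle array. The chaperones Hspa4 and Hspd1 had log2 fold changes of 0.41 and 0.42 and upper limits of 0.72 and 0.74 (limma, BH adjusted p = 0.996 for each). Of 37 extracellular matrix genes 24 excluded a 2-fold change (8 with the spread of 30 arrays, 7 with 23), and 25 were lower, with a median of -0.13 that was -0.002 without the second vehicle array.

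Atrophy genes had small differences of mostly 1 sign. The 25 measured members had means of 11.31, 11.35 and 11.26 at 0.5 mg/kg, against 11.57, 11.48, 11.52 and 11.52 in vehicle, without overlap. Array means did not overlap in 2 of 31 lists, this and the lymphocyte list, and in 4.97% of single probe sets, so that the number of such lists is near the background. Of the 25, 23 were lower and 2 higher, 0 were called, the median was -0.14, and 22 excluded a 2-fold change (15 with the spread of 30 or of 23 arrays). With the slow-fibre covariate the counts were again 23 lower and 2 higher. In unexercised animals the median at 0.5 mg/kg over vehicle was 0.008, and in exercised animals it was -0.03 against 0.1 mg/kg/day. The exercised vehicle group had the highest list mean of the gastrocnemius groups, at 11.53.

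The muscle ubiquitin ligases differed in how well they were measured. Fbxo32 (atrogin-1) had a signal of 441.3, 678.1 and 664 at 0.5 mg/kg, against 688.1, 649.1, 1183.6 and 960.7 in vehicle, and a log2 fold change of -0.52 with an interval of -1.06 to 0.01. The upper end of that unadjusted interval was a rise of 1.01-fold. Trim63 (MuRF1) had a signal of 6126.5, 5589.9 and 5006.7 at 0.5 mg/kg, against 7720.1, 4882.1, 5966.9 and 4858.2 in vehicle, and an interval of -0.42 to 0.32. Mstn, myostatin, the inhibitor of muscle growth, was lowest of the list at -1.12, with signals of 359.6, 205 and 66.5 at 0.5 mg/kg, against 606.8, 156.7, 543.9 and 438.6 in vehicle, and an interval of -2.33 to 0.09. The metallothionein Mt2A was at -0.97, with an interval of -1.63 to -0.32 (limma, unadjusted p = 0.00732, BH adjusted p = 0.996). In the other direction, Ube2b, a ubiquitin-conjugating enzyme, was at 0.34 with arrays that did not overlap and an upper limit of 0.58, but its 3 probe sets ran from -0.90 to 0.34. Proteasome genes were tightly bounded, with 26 of 26 inside 2-fold under each of the 3 estimates of the spread and 25 inside 1.5-fold.

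Among genes of regeneration and denervation, 8 of 20 excluded a 2-fold change (1 with the spread of 30 arrays, 2 with 23). Cdkn1a, a cell-cycle inhibitor induced in stressed and denervated muscle, had a signal of 879.4, 1266.6 and 1519.9 at 0.5 mg/kg, against 3973.8, 1411.8, 2435.6 and 3024.3 in vehicle. Its value of -1.08 ± 0.31 did not pass (limma, unadjusted p = 0.00503, BH adjusted p = 0.996). The unadjusted interval of -1.76 to -0.40 excluded a rise of 2-fold or more, but does not settle the direction. Myog, the myogenic factor that denervation induces, was well bounded at -0.64 to 0.44, and Ankrd1, a stretch-responsive gene, was not, at -1.65 to 1.76.

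The largest differences among genes with an unadjusted p under 0.01 and non-overlapping arrays (52 of 11684 genes, 0.445%; 18 or 0.154% higher and 34 or 0.291% lower) were mostly in dim transcripts. Higher at 0.5 mg/kg, but not called, were Lrrc32, which tethers latent TGF-beta to the cell surface, at 1.75, Pglyrp1, a peptidoglycan recognition protein, at 1.69, and Doc2g at 1.67. Perm1, a muscle regulator of oxidative genes downstream of Ppargc1a, followed at 0.93, and Afg1l, a mitochondrial ATPase, and Atg10, an autophagy enzyme, at 0.87 and 0.85. Perm1 was the bright one, with a signal of 7415.6, 8164.6 and 6838.8 at 0.5 mg/kg, against 4666.1, 5852.3, 2453.4 and 3500.2 in vehicle, and an interval of 0.39 to 1.47.

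Lower were Sh3bp2, a signalling adaptor, at -2.52, Slc38a5, a glutamine transporter, at -2.15, and Sectm1b and the small GTPase Rnd1, each at -2.01. Ina, a neuronal intermediate filament, and Nrxn2, a synaptic adhesion protein, were at -1.88 and -1.81. Slc38a5 had the smallest p of all probe sets (limma, unadjusted p = 0.000206, BH adjusted p = 0.996), with signals of 19.3, 60.5 and 68.2 at 0.5 mg/kg, against 196.3, 268.7, 272.9 and 236.5 in vehicle. These 12 were picked for their size in the exercised arrays. In the unexercised arrays, which the choice did not use, 8 of the 12 (66.7%) had the same sign at 0.5 mg/kg over vehicle, beside 53.2% of all probe sets and 60% of the 904 with an unadjusted p under 0.05. Of the 12, Slc38a5 and Atg10 (16.7%) had the same sign and an unadjusted p under 0.05, beside 1.85% of all and 3.98% of the 904. Doc2g had the opposite sign there, at -1.48 (limma, unadjusted p = 0.00772).

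One vehicle array decided whether anything was called. Without the second vehicle array, 91 probe sets (0.419%) passed limma's test after BH adjustment, 71 (0.327%) higher and 20 (0.092%) lower at 0.5 mg/kg, and leaving out any other of the 7 arrays gave 0. They included 7 of 15 slow-fibre genes, 11 of 28 fatty acid genes, 2 of 47 oxidative phosphorylation genes and 1 of 15 TCA cycle genes, and 0 of the sterol synthesis, macrophage, proteasome and atrophy lists. Examples were Tnni1 at 4.67 ± 0.78, Atp2a2, the slow-fibre calcium pump, at 3.37 ± 0.42, and Fabp3, a fatty acid binding protein of oxidative muscle, at 1.64 ± 0.19 (limma, BH adjusted p = 0.0421, 0.0302 and 0.0302 without that array). The lower called ones included Cdkn1a at -1.36 ± 0.22 and Mylk2 at -0.76 ± 0.10 (BH adjusted p = 0.0338 and 0.0302 by the same limma fit). Among medians of further lists that moved by over 1.5 times without it were -0.12 for cell cycle, -0.115 for proteasome, 0.35 for endothelial, 0.16 for smooth muscle and -0.04 for neutrophil genes. Those of sterol synthesis, sterol sensing and the isoprenoid list were -0.07, -0.06 and -0.06. No label marks the array as different. Its actin 5' to 3' ratio of 0.350 was the lowest of the 7 arrays, while its Gapdh ratio of 0.837 lay inside the range of the others. Its median signal of 158.6 was the highest of the 7. Whether these values bear on the calls was not tested. The array was left in, and these calls were found by leaving it out after its values were known.

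The middle dose was also set against its neighbours in exercised animals. Against 0.1 mg/kg/day (4 arrays), 0 of 21729 probe sets (0%) were called by limma, with 2357 (10.8%) at an unadjusted p under 0.05, 988 (4.55%) higher and 1369 (6.3%) lower at 0.5 mg/kg, and a lowest BH adjusted p of 0.112. Beside that 10.8%, the unadjusted threshold was met by 21 of 30 macrophage genes (median -0.88), 28 of 47 oxidative phosphorylation genes (0.31) and 15 of 37 matrix genes (-0.65). It was met by 2 of 17 sterol synthesis, 0 of 15 slow-fibre and 0 of 26 proteasome genes. Genes of a list vary together, so that these counts are not independent. Against 1.0 mg/kg/day (4 arrays), 8852 (40.7%) were called, and 49.9% had an unadjusted p under 0.05. Of the called, 3867 (17.8%) were higher and 4985 (22.9%) lower at 0.5 mg/kg. With every array centred on its median, the split turned to 4921 higher and 4065 lower, with the median of all probe sets at 0.13. Of the panel, 29 of 36 were called against 1.0 mg/kg/day, 18 lower and 11 higher at 0.5 mg/kg. Of the lists, 0 of 30 macrophage genes were higher and 30 lower, with a median of -4.50. Among the sterol synthesis enzymes 9 of 17 were lower, with a median of -1.17. The signal filter used the mean over all arrays of the series, those at 1.0 mg/kg/day included. A gene dim at 0.5 mg/kg could thus be kept for its signal at 1.0 mg/kg/day. Of the genes on the array, 30 of 33 macrophage genes and 17 of 17 sterol synthesis enzymes were kept. The lists and the panel were chosen with earlier results of these data known, so these counts describe them and nothing wider.

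Spp1 averaged a signal of 72.8 at 0.5 mg/kg, against 23600 at 1.0 mg/kg, with a log2 fold change of -8.12 ± 0.48 (limma, BH adjusted p = 4.57e-05). The size of that fold depends on the offset of 12.4, since the third 0.5 mg/kg array had a signal of only 27.3. Sqle had a signal of 15.1 to 54.5 at 0.5 mg/kg, against 490 to 2870 at 1.0 mg/kg (limma, BH adjusted p = 0.000703), and no fold is given because the lower signals lie near the offset. Insig1 averaged 679.2 at 0.5 mg/kg, against 4996 at 1.0 mg/kg (-2.74 ± 0.37, limma, BH adjusted p = 0.00101). In the other direction Pvalb was 4.06 ± 0.49 higher at 0.5 than at 1.0 mg/kg (limma, BH adjusted p = 0.000654). Cdkn1a averaged 1222 at 0.5 mg/kg, against 4610 at 1.0 mg/kg (-1.92 ± 0.24, limma, BH adjusted p = 0.000704), and Ppargc1a was 2.49 ± 0.65 higher at 0.5 mg/kg (limma, BH adjusted p = 0.0147). Myh7 was not called, at 3.74 ± 1.86 (limma, BH adjusted p = 0.138). These fits share the 0.5 mg/kg arrays with the comparison against vehicle.

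**Figure D5:**
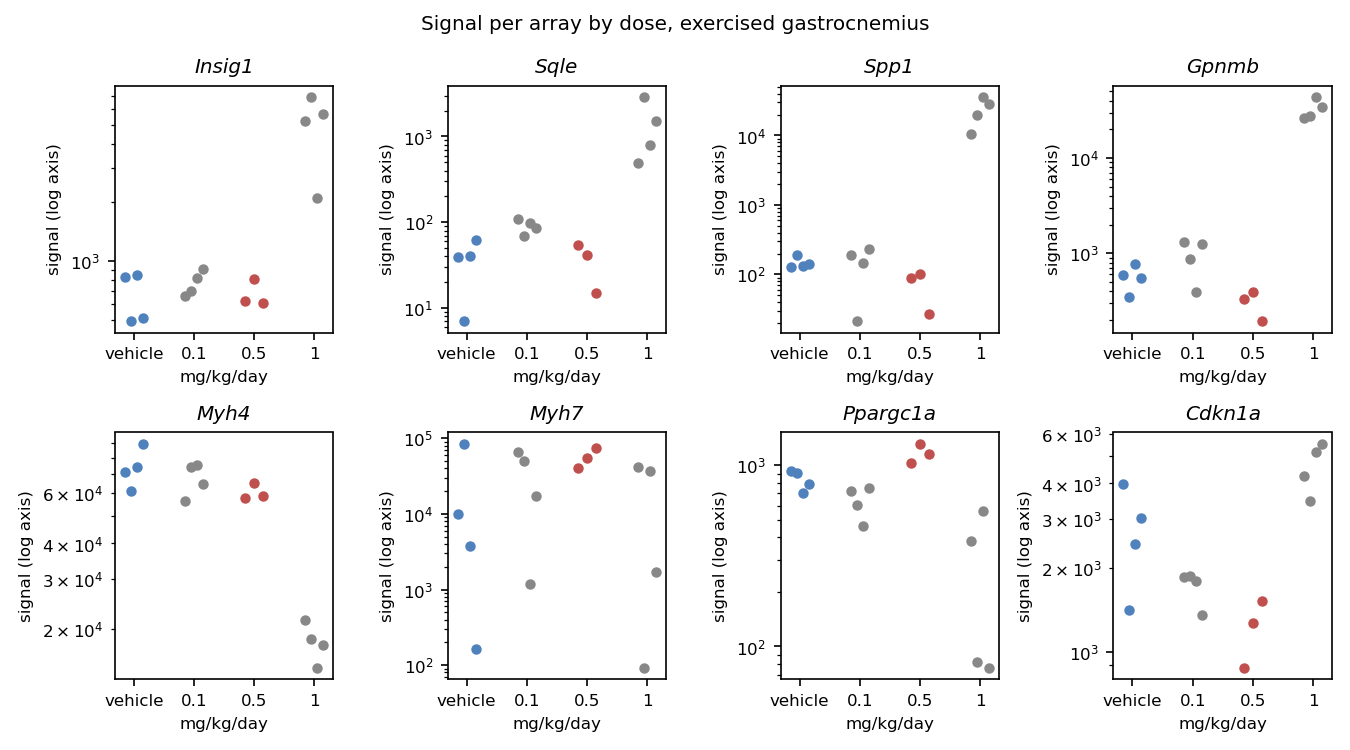
Signal per array (log axes) of 8 genes by dose in exercised gastrocnemius, 1 point per array, vehicle, 0.1, 0.5 and 1.0 mg/kg/day from left to right. Spp1 at 0.5 mg/kg lies between 27.3 and 102.1 and averages 23600 at 1.0 mg/kg, while Myh7 spans 164.6 to 84952.6 among vehicle arrays.

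The effect of this dose was not found to differ with exercise. In unexercised gastrocnemius (4 arrays at 0.5 mg/kg/day and 4 of vehicle), 0 probe sets (0%) were called by limma and 726 (3.34%) had an unadjusted p under 0.05. The interaction, the effect in exercised minus that in unexercised animals over 15 arrays, was called for 0 (0%) by limma, with 738 (3.4%) at an unadjusted p under 0.05 and a lowest BH adjusted p of 1.00. The smallest p-values belonged to Liat1, Doc2g, Spry2, a feedback inhibitor of growth factor signalling, Sectm1b and Clstn2. Doc2g was at 1.67 in exercised and -1.48 in unexercised animals, and Liat1 at -1.33 and 0.84. Mylk2 had nearly the same value in both, -0.56 with exercise and -0.57 without (unadjusted p = 0.0159 and 0.00547, limma), whereas Myh7 was at 3.49 with exercise and -0.03 without. The SE of the Myh7 value was 1.51 with exercise and 0.374 without. A count of 0 in the interaction does not show that the effects are equal.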

How the data were processed

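The authors deposited 1 linear intensity per probe set and array. The submitters' processing notes name MAS5, without a version, and the target it scaled arrays to is not given in the sources used here. Per the labels' protocols, about 4 µg of total RNA was made into biotinylated cRNA. The series' design calls the replicates biological, and no label used here ties an array to a single animal. Trimmed array means (2% at either end) were all close to 600.3, so the authors' scaling was kept. Arrays have no read depth, and their number limits the precision.

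Of 31099 probe sets, 57 controls were left out. Values were taken as log2(value + 12.4), the offset being the 10th percentile of all values, so that fold changes of dim genes are understated. The 21729 probe sets with a mean log2 value over 45 arrays at or above the 30th percentile (6.03) were tested. Of 31042 probe sets, 20826 had 1 symbol in the platform annotation, 436 several and 9780 none in that table, and 20758 matched RefSeq, 0 under another symbol. A gene is its tested probe set of highest mean.

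Groups were compared with limma 3.58.1 (R 4.3.3; lmFit, eBayes with trend), two-sided, BH over all tested probe sets, threshold 0.05. Intervals are 95%. The comparison with vehicle was fitted on its 7 arrays, a choice made because the 1.0 mg/kg/day groups spread more; it gives narrower intervals than 30 or 23 arrays, which were alternatives. Code was checked on simulated data.

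The groups, the 31 gene lists (686 symbols, 591 tested) and the panel were chosen with earlier results of these data known. Named genes are a fixed panel by role, the 6 largest values in each direction at an unadjusted p under 0.01 without overlap, the 6 widest intervals at a mean log2 of at least 10, the ends of each list, and the 5 smallest interaction p-values. Further list members were named after their values were seen. No test was run on lists. Some panel genes are not reported here.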

Additional observations from a re-analysis of the deposited data

Results flagged for a closer look

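In groups of 4, the lowest or highest array can be tested against the gap to its neighbour (Dixon's test, 95% level), and the vehicle group was so tested for 31 list means and 55 genes. Chance alone gives about 1 in 20, and lists that share genes or vary together are not independent. Of the 9 results found, 7 concern the second vehicle array. In it the list mean was 14.68 for oxidative phosphorylation, against 14.10 to 14.19 in the other vehicle arrays, 14.14 for the TCA cycle against 13.75 to 13.76, and 12.86 for fatty acid uptake and oxidation against 11.80 to 11.95. The oxidative stress list mean was 11.25 in that array against 10.96 to 10.98, and the immediate early list mean 9.60 against 8.75 to 8.87. Fos, an immediate early gene, had a log2 signal of 11.25 there, against 7.75 to 7.86, and Clstn2 was low at 7.24, against 7.48 to 7.53. In the first vehicle array Ucp3, a mitochondrial uncoupling protein of muscle, was low at 11.11, against 12.39 to 12.55. In the third, Lrrc32 was low at 4.92, against 5.84 to 6.01.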

How the results depend on the processing

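Of the alternatives run, all but leaving out the second vehicle array gave 0 calls; leaving out 1 array in turn gave 0 to 91 calls and 660 to 2301 probe sets at an unadjusted p under 0.05. That unadjusted count was 1429 with no filter (of 31042) and 1750 with array weights. Deviations from the group mean had correlations of 0.0881, 0.0142 and -0.0332 between arrays of the same replicate number. Between arrays of different numbers they ran from -0.124 to 0.116. No pairing by number was seen, but these values cannot show that there is none. With the replicate block 0 were called, 743 had an unadjusted p under 0.05 and 12623 excluded a 2-fold change. An offset of 50 gave 16212 exclusions and an offset of 1 gave 12652, so that exclusion in dim genes depends on the offset.

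List medians (log2) moved with median centring (sterol sensing 0.078, atrophy -0.089 and p53 and apoptosis 0.088), quantile normalization (fast fibre -0.024 and atrophy -0.18), the mean over a gene's probe sets (atrophy -0.18 and clock 0.0026), a filter on the 7 arrays (lymphocyte -0.0069) and array weights (lymphocyte -0.11). With the slow-fibre covariate, added after seeing the data, they were sterol sensing 0.084, fast fibre -0.067, TCA cycle 0.055, glycolysis 0.0095, lymphocyte -0.54, neutrophil 0.53, adipocyte -0.042, erythroid 0.18 and satellite cell -0.20. Leaving out 1 array in turn gave medians of -0.17 to -0.029 for proteasome, -0.057 to 0.10 for p53 and apoptosis, -0.40 to -0.012 for lymphocyte, -0.25 to 0.71 for neutrophil, -0.063 to 0.081 for sterol sensing and -0.19 to -0.13 for atrophy.

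None of the genes whose sign changed was called. Their log2 fold changes were Idi1 0.046 and Trim63 0.0053 with median centring, Idi1 0.023 with quantile normalization and Pdk4 0.0085 and Edem1 -0.34 with the mean over probe sets. Array weights gave Sqle -0.17, Insig1 -0.019, Ccl2 -0.14, Pdk4 0.11, Myog 0.013 and Ankrd1 -0.41. The replicate block gave Idi1 0.044, Insig1 -0.055, Rhob -0.0029, Hspa1a -0.034 and Ankrd1 -0.089. The covariate gave Idi1 0.41, Fdps 0.12, Rhob -0.23, Pvalb 0.14, Cox8b -0.019, Gpd1 0.22, Fos -0.40, Hspa1a -0.73, Mki67 0.22 and Myoz2 -0.47. Leaving out 1 array in turn gave -0.32 to 0.19 for Idi1, -0.35 to 0.43 for Sqle, -0.34 to 0.64 for Ccl2, -0.41 to 0.40 for Pdk4, -0.29 to 0.10 for Myog, -0.65 to 0.63 for Ankrd1, -0.073 to 0.19 for Insig1, -0.027 to 0.065 for Cox8b, -0.058 to 0.32 for Rhob, -0.80 to 0.44 for Atf3, -0.13 to 0.092 for Trim63, -0.75 to 0.17 for Mki67 and -0.034 to 0.96 for Hspa1a. The causes were not tested.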
